A study of Mus musculus with 9 samples.

Results

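The 9 genes described here encode transcription factors that direct the helper lineages of CD4 T cells: Tbx21, Runx3 and Stat4 for T helper 1, Gata3 and Gfi1 for T helper 2, Rora, Ahr and Stat3 for T helper 17 and Bcl6 for T follicular helper cells. They were picked by symbol, each matched 1 of the 43432 genes counted, and 9 of 9 passed the filter on low counts, as did 13685 genes in all. The RNA came from cultured mouse Tregs (regulatory T cells), a CD4 lineage that depends on the factor Foxp3 and restrains other immune cells. All donors were C57BL/6 mice with a Foxp3-Cre-GFP allele, in which the Foxp3 gene drives Cre recombinase and green fluorescent protein, and an R26-LSL-RFP allele, in which Cre switches on a red reporter. The 4 Ezh2-deficient libraries came from Ezh2-fl/fl mice, in which Cre also removes the floxed part of both Ezh2 alleles. Of the 5 libraries called WT, replicates 2 to 5 were Ezh2-+/+ and replicate 1 was Ezh2-fl/+, so that replicate 1 can lose 1 allele. Cells with high CD62L were sorted as Tregs, stimulated on beads that bind CD3 and CD28, grown with 2000 U/ml interleukin-2 and collected on day 4. The labels used here state neither age nor sex, and the study's text calls the libraries of a group biological replicates. The comparison of the groups asked what the loss of Ezh2 changes in activated Tregs.

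A naive CD4 T cell takes on a helper lineage when a cytokine signals through a STAT protein, and the STAT then turns on a lineage factor that sustains its own program and represses the others. Interleukin-12 acts through Stat4 to raise Tbx21 and the interferon-gamma program, interleukin-6 acts through Stat3 toward the T helper 17 or follicular program, and Gata3 holds the T helper 2 program. Tregs use several of the same factors to reach and restrain the matching type of helper cell. Ezh2 is the methyltransferase of Polycomb repressive complex 2, which marks histone H3 on silent genes, and lineage factor genes are known targets of that mark in T cells.

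Promoter sequences are given first so that Stat4 and Gfi1, which rose, can be set beside factors that did not pass the test. RefSeq promoter windows on build GRCm38.p6 were found for 8 of the 9 genes, 12 windows in all, and the 250 bases before each start were used. CG dinucleotides, the sites of DNA methylation whose dense islands Polycomb complexes are known to occupy, are in capitals in the first 3 sequences. The window of Stat4 (chr1:51986898-51987147, plus strand, outside annotated genes), that of an inner start of Gfi1 (chr5:107724344-107724593, minus strand, within an intron) and that of Rora (chr9:68653536-68653785, plus strand, outside annotated genes) read as follows.
Stat4: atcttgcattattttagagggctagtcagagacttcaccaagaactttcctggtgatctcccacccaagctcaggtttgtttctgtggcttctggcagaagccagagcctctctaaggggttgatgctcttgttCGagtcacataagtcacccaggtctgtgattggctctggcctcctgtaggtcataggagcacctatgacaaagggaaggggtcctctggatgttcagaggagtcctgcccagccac
Gfi1: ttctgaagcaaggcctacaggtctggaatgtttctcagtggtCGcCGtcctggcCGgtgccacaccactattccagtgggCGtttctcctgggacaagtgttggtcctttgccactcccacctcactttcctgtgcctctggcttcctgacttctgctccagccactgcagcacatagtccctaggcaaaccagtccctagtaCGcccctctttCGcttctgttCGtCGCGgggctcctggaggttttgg
Rora: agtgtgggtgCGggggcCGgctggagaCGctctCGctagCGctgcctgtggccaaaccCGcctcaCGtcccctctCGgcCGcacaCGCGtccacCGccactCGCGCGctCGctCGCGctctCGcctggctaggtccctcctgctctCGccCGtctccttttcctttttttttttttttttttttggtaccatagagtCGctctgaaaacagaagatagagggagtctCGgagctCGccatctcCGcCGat

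Stat4 had 1 CG in its window, and 7.87% of 32817 windows of this length had fewer. The second Stat4 window, before an inner start, had 3. The shown Gfi1 window had 9 and that of its outer start 13, against a median of 6 over all windows. Rora had 26 (90.4% of windows had fewer) and the inner start of Runx3 38 (98.1%), the highest counts among these factors. The outer start of Runx3 had 8, fewer than either Gfi1 window. Stat3 had 13, Tbx21 16, Gata3 19, and the inner and outer starts of Bcl6 13 and 21. All 250 bases of the outer Gfi1 window and of the Gata3 window lie in annotated exons. The outer and inner Runx3 windows hold 53 and 49 exonic bases. The windows of the factors that rose had CG counts both below and above the median, and these counts describe the letters only.

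An inner start of Bcl6 is shown too (chr16:23981284-23981533, minus strand, within an intron), because its window held 3 matches to TTCNNNGAA, the palindrome that STAT dimers bind, here in capitals.
Bcl6: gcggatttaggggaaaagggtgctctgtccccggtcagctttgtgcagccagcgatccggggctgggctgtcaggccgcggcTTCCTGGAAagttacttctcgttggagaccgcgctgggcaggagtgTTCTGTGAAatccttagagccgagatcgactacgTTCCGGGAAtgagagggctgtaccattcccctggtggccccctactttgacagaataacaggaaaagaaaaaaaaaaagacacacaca

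Of all windows, 7.01% held at least 1 match and 0.0274% held 3 or more. Among the 12 windows of these factors the motif was otherwise found only in the outer Bcl6 window, where it had 1 match. Of the 3 matches 1 is also a match to TTCCTNGAA, the sequence bound by BCL6 itself, which is contained in the STAT motif and was present in 1.31% of windows. Other motifs were searched on both strands. TGTGGT, the core site of RUNX proteins, was found 2 times in the outer window of Runx3, and 14% of all windows hold it. AGGTCA, a site of ROR receptors, was found 1 time in the outer window of Stat4 (14% of all windows). GCGTG, the AHR core, was found 1 time in Rora (28.1%) and AGGTGT, a T-box site, 1 time in Stat3 (11.8%). The GATA site AGATAA (9.99%) and the GFI1 core AAATCA (12.4%) had 0 matches in the 12 windows. A match is not a bound site, and a missing match says only that those letters are not in that window.

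Stat4 and Gfi1 were about 2-fold higher in Ezh2-deficient Tregs, and the other 7 factors did not pass the test. With 2 of 9 called higher and 0 lower, the share called is close to the background of all tested genes, of which 21.9% passed an adjusted p of 0.05 (13.1% higher and 8.8% lower), so the count is not a result about these factors as a set. The adjusted p is the Benjamini-Hochberg value over all 13685 genes of edgeR's two-sided quasi-likelihood test. The groups did not overlap for the same pair, and they did not overlap for 21.2% of all tested genes (12.5% higher and 8.69% lower). At an unadjusted p under 0.05 there were 3 of 9, against 37.0% of all tested genes. DESeq2 and limma-voom also called 2 higher and 0 lower. The median log2 fold change of the 9 was 0.14 and that of all tested genes 0.0026. The 0 lower calls became 1 in 4 of the 24 alternative analyses, for Stat3 or Tbx21, as given with those genes.

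**Figure D1:**
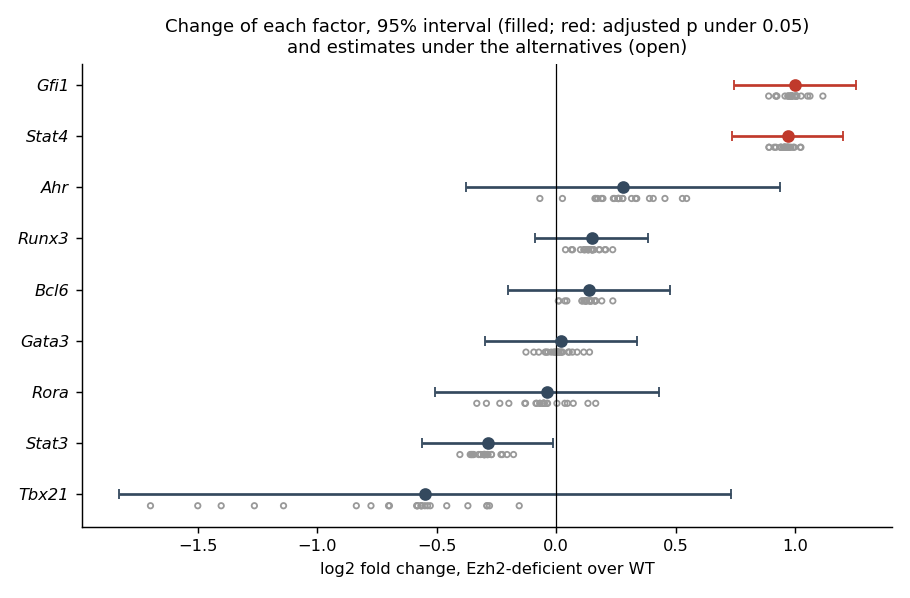
The log2 fold change of each factor (horizontal axis, Ezh2-deficient over WT, filled points) with its 95% interval from edgeR, and the estimates under the 24 alternatives as open points below it. Stat4 and Gfi1, in red, lie apart from 0 in every estimate, between 0.89 and 1.1, whereas the estimates of Tbx21 spread from -1.70 to -0.16.

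Total counts were 32469450 to 62201921 per library. The 9 Treg marker genes, Foxp3 and Il2ra among them, summed to 11760 to 12490 CPM (the count scaled to library size) in Ezh2-deficient and 10400 to 11410 CPM in WT libraries, with 2 of 9 called higher (Lrrc32 and Foxp3). Over all tested genes 13.1% were called higher. The Foxp3 call was lost when any 1 of Ezh2-deficient replicates 1 to 3 and WT replicates 2, 3 and 5 was left out (adjusted p = 0.0503 to 0.126). Ezh2 itself was at 161 ± 6.49 CPM (SD, n = 4) against 296 ± 50.5 CPM (SD, n = 5), a log2 fold change of -0.88 (edgeR adjusted p = 0.000363). Across both groups the libraries also fell into 5 with a high and 4 with a low hypoxia score, the mean log2 CPM of 20 genes that respond to low oxygen. The 5 (Ezh2-deficient replicates 1 and 4 and WT replicates 1, 2 and 4) were at 6.65 to 6.98 and the 4 at 5.24 to 5.30. Transcripts of CD8 T cells, Cd8a and Cd8b1, summed to 14.2 to 131 CPM in Ezh2-deficient and 16.2 to 147 CPM in WT libraries, highest in replicate 4 of each group.

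The levels of the factors spanned a wide range. Per kilobase of merged exons, the scale on which genes can be compared, Stat3 was highest in WT Tregs at 51.7 ± 7.40 CPM per kb (SD, n = 5). Runx3 followed at 20.6 ± 2.74, Gata3 at 18.9 ± 3.44, Stat4 at 8.73 ± 1.08 and Gfi1 at 5.68 ± 0.705 CPM per kb. Ahr was at 3.39 ± 1.32, Rora at 3.28 ± 0.582, Bcl6 at 1.29 ± 0.192 and Tbx21 lowest at 0.753 ± 0.334 CPM per kb. The WT libraries of neighbours in this order did not overlap between Stat3 and Runx3, Gata3 and Stat4, Stat4 and Gfi1, or Rora and Bcl6. They overlapped between Runx3 and Gata3, Gfi1 and Ahr, Ahr and Rora, and Bcl6 and Tbx21. The order of the means was the same in Ezh2-deficient Tregs, where Stat4 reached 17.1 ± 1.89 and Gata3 stood at 19.2 ± 3.34 CPM per kb (SD, n = 4).

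**Figure D2:**
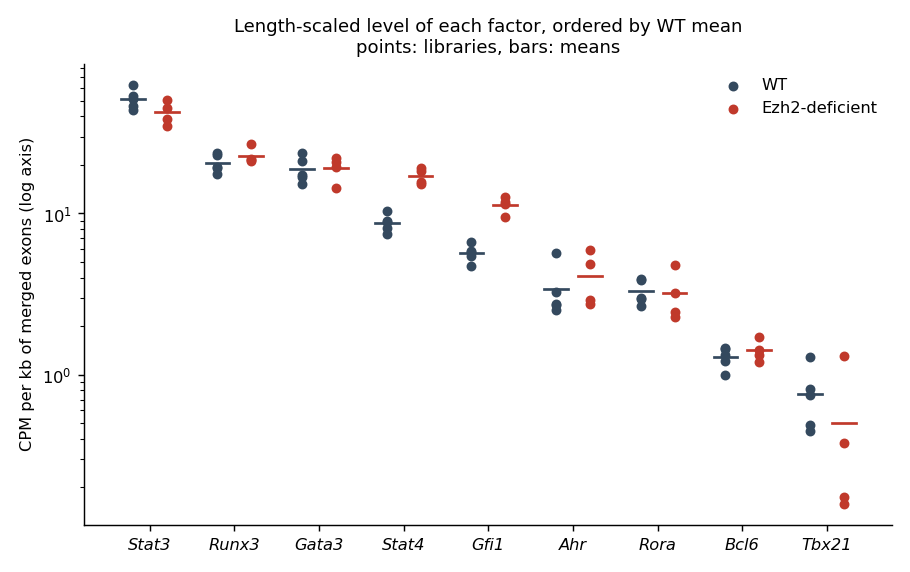
Length-scaled level (CPM per kb of merged exons, log axis) of each factor in the 5 WT and 4 Ezh2-deficient libraries, ordered by the WT mean, with bars at the group means. Stat3 stands highest and Tbx21 lowest in both groups, and the Stat4 and Gfi1 points of the groups are apart.

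Among the T helper 1 factors, Stat4 (ENSMUSG00000062939; GRCm38 chromosome 1, 51987148 to 52107189, protein coding), which carries the interleukin-12 signal, rose in Ezh2-deficient Tregs. It was at 58.9, 61.1, 74.0 and 70.8 CPM in Ezh2-deficient replicates 1 to 4. In WT replicates 1 to 5 it was at 34.6, 31.3, 28.9, 34.2 and 40.0 CPM. The lowest Ezh2-deficient library was above the highest WT library. Ezh2-deficient libraries averaged 66.2 ± 7.32 (SD, n = 4) and WT libraries 33.8 ± 4.18 CPM (SD, n = 5), which is 1.96-fold, with a 95% interval of 1.67 to 2.30 (log2 fold change 0.97, SE 0.11, adjusted p = 0.000141). The rise passed in 24 of 24 alternatives (0.89 to 1.02), including a test against a 1.5-fold change (adjusted p = 0.0172). Within the libraries of high hypoxia score it was 0.96 (adjusted p = 0.00233) and within those of low score 0.94 (adjusted p = 0.0495). In bulk RNA, more cells that express a gene and more RNA per cell cannot be told apart.

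Markers of other cells are set beside this rise, since some moved with the groups. Over all tested genes 13.1% were called higher and 8.8% lower. Transcripts known from conventional CD4 T cells (Cd40lg, Il2, Satb1, Pde3b and Tnfsf8) summed to 368 to 548 CPM in Ezh2-deficient and 171 to 255 CPM in WT libraries, with 3 of 5 called higher (Tnfsf8, Satb1 and Pde3b). Pde3b was no longer called when any 1 of Ezh2-deficient replicates 1, 3 and 4 and WT replicates 1, 2, 3 and 5 was left out (adjusted p = 0.0511 to 0.115). Il2, the defining cytokine, averaged 0.377 and 0.261 CPM, and neither it nor Cd40lg passed. Myeloid markers summed to 20.9 to 28.0 against 11.8 to 18.6 CPM, with Itgam and Adgre1 called higher. Fcer1g, the other myeloid marker tested, had 85 against 272 counts (log2 fold change -1.59, adjusted p = 0.135). Cd14, with 1 against 42 counts, and Lyz2, Csf1r and Spi1 were too low to be tested. Markers of NK cells were at 4.00 to 27.6 against 6.34 to 16.2 CPM, with Ncr1 and Klra8 at 0 counts. The ILC and gamma delta T cell markers summed to 18.9 to 39.8 against 8.98 to 21.5 CPM. Of the 3 tested among them, 1 rose (Tcrg-C1) and 1 fell. B cell markers were at 15.2 to 24.5 against 20.7 to 22.9 CPM, with Cd79a lower, and red cell markers at 5.41 to 19.4 against 2.17 to 7.65 CPM, with Hba-a1 higher and Alas2 at 2 and 1 counts. The part of these cells in the rises of Stat4 and Gfi1 was not tested. Without the library of highest CD8 transcripts of each group, Stat4 was at 0.94 and Gfi1 at 1.01 (adjusted p = 0.00118 and 0.000687).

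Tbx21 (ENSMUSG00000001444; chromosome 11, 97098071 to 97115331), the T-box factor that defines T helper 1 cells, was low in all libraries and uneven. It was at 0.930, 0.434, 0.391 and 3.24 CPM in Ezh2-deficient replicates 1 to 4, from 33, 19, 13 and 199 counts. In WT replicates 1 to 5 it was at 2.03, 1.85, 1.21, 3.18 and 1.1 CPM. Ezh2-deficient replicates 1 to 3 lay below every WT library, and replicate 4 lay above every one. Ezh2-deficient libraries averaged 1.25 ± 1.35 (SD, n = 4) and WT libraries 1.87 ± 0.830 CPM (SD, n = 5), with a log2 fold change of -0.55 and a 95% interval of -1.83 to 0.73 (adjusted p = 0.529), so that the change could not be placed within a 2-fold range. Without Ezh2-deficient replicate 4 the log2 fold change was -1.70 and passed (adjusted p = 0.0249), and over the 24 alternatives it lay between -1.70 and -0.16. The highest Tbx21 library of each group was also that with the most CD8 transcripts (131 and 147 CPM for Cd8a and Cd8b1), and without both of these libraries the change was -1.40 (adjusted p = 0.0521). With a CD8 score as a covariate it was -0.37 (adjusted p = 0.457). Its relative Eomes, a T-box factor of cytotoxic cells, was at 9.19 ± 6.07 against 5.87 ± 2.69 CPM (adjusted p = 0.335, log2 fold change 0.65), and was likewise highest, at 17.3 CPM, in Ezh2-deficient replicate 4. Eomes passed in 2 of 24 alternatives. These were the edgeR fits with the CD8 score (0.88, adjusted p = 0.0436) and with the hypoxia score (0.60, adjusted p = 0.0472) as a covariate.

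Runx3 (ENSMUSG00000070691; chromosome 4, 135120652 to 135177990), a Runt-domain factor that works with Tbx21 and silences Cd4 in CD8 T cells, was one of the more even members. It was at 106, 109, 108 and 134 CPM in Ezh2-deficient replicates 1 to 4 and at 96.9, 96.0, 87.6, 120 and 116 CPM in WT replicates 1 to 5. Ezh2-deficient replicate 4 alone was above every WT library, and the groups overlapped. The change was 0.15 (95% interval -0.09 to 0.38, adjusted p = 0.346), and 0.04 without that replicate (adjusted p = 0.836). The related gene Runx2, known best for bone formation, rose instead. It was at 36.0, 34.1, 35.1 and 37.5 CPM in Ezh2-deficient and 19.0, 19.2, 14.3, 23.6 and 17.9 CPM in WT libraries, without overlap (log2 fold change 0.92, adjusted p = 0.000445). Runx1, the form prominent in naive T cells, was at 98.3 ± 9.07 against 88.6 ± 9.87 CPM (0.15, adjusted p = 0.281).

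**Figure D3:**
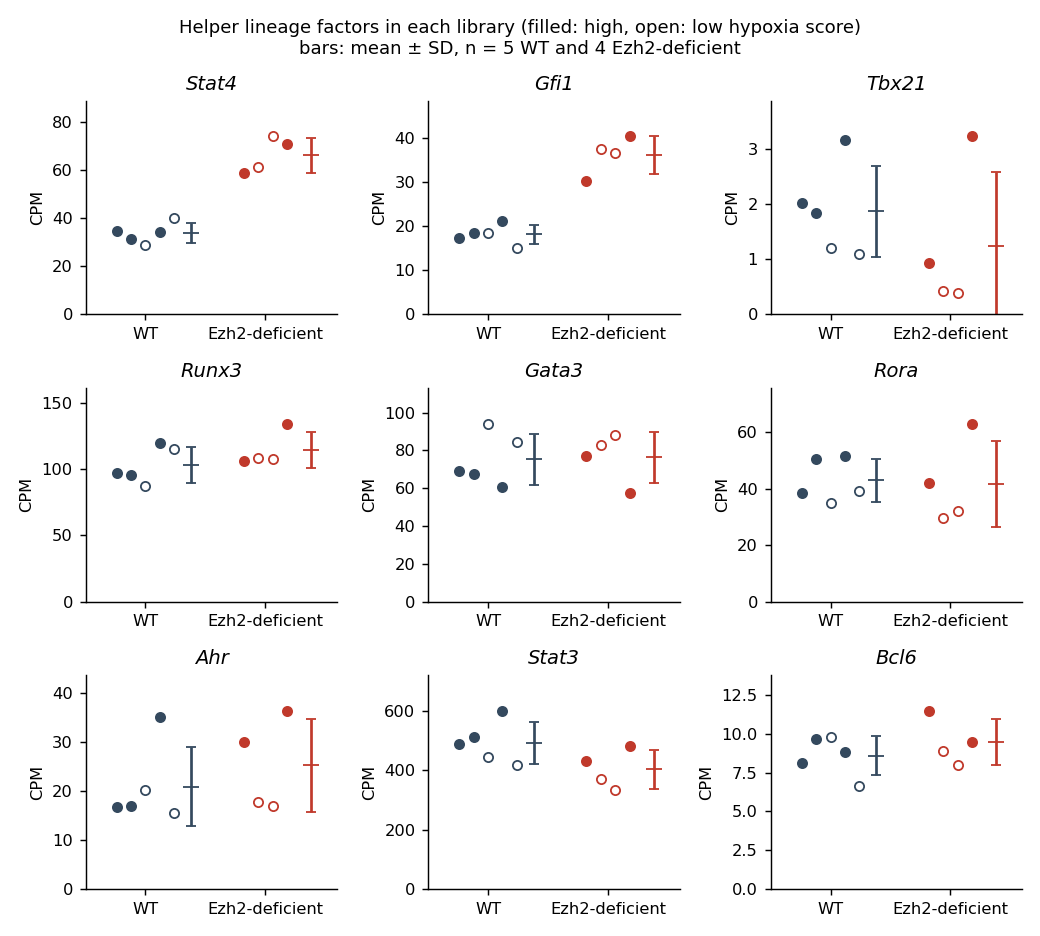
CPM (vertical axes from 0) of each factor in the 5 WT and 4 Ezh2-deficient libraries, filled for a high and open for a low hypoxia score, with mean ± SD at the right of each group (the SD bar of Tbx21 is cut at 0). The Stat4 and Gfi1 points of the groups are apart, whereas Gata3 separates filled from open points instead.

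Of 20 tested genes of the T helper 1 pathway other than these factors, 3 rose and 0 fell, with a median log2 fold change of 0.34. Of all tested genes 13.1% rose and 8.8% fell, with a median of 0.0026. At an unadjusted p under 0.05 the list had 7 and 3, DESeq2 called 5 and 2, and limma-voom 4 and 1. Over all tested genes, in either direction, these shares were 37.0%, 28.9% and 21.8%. No list was tested as a set, here or below. Il18r1, a chain of the interleukin-18 receptor, rose to 246 ± 20.2 from 102 ± 31.2 CPM (adjusted p = 0.0016, log2 fold change 1.27). Ifngr1, the ligand-binding chain of the interferon-gamma receptor, rose to 862 ± 47.6 from 576 ± 118 CPM (0.58, adjusted p = 0.0107). Il18rap, the second interleukin-18 receptor chain, rose by 0.69 (adjusted p = 0.0365), but was no longer called when any 1 of Ezh2-deficient replicates 1, 3 and 4 and WT replicates 1 to 4 was left out (0.50 to 0.73, adjusted p = 0.0536 to 0.123). The receptor chains of interleukin-12, which signals through Stat4, did not pass: Il12rb1 was at -0.36 and Il12rb2 at 0.10 on the log2 scale. Ifng, the interferon-gamma gene, was at 0.251 to 0.585 CPM in Ezh2-deficient and 0.0861 to 0.463 CPM in WT libraries, from 69 and 52 counts, and did not pass (adjusted p = 0.398). Of the RUNX partners and targets, 1 of 10 rose (Runx2) and 1 fell. The latter was Zbtb7b, the ThPOK factor of the CD4 lineage (-0.37, adjusted p = 0.0455), which missed the threshold when any 1 of Ezh2-deficient replicates 1, 3 and 4 and WT replicates 3 and 4 was left out (-0.39 to -0.32, adjusted p = 0.0741 to 0.0978). Zbtb7b passed in 12 of 24 alternatives, and neither limma-voom, with or without quality weights, nor the replicate block called it. For this list DESeq2 called 1 higher and 2 lower, and limma-voom 1 and 0.

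Of the T helper 2 factors, Gfi1 (ENSMUSG00000029275; chromosome 5, 107716657 to 107726036), a zinc finger repressor that promotes the expansion of T helper 2 cells, rose. It was at 30.1, 37.5, 36.5 and 40.3 CPM in Ezh2-deficient replicates 1 to 4. In WT replicates 1 to 5 it was at 17.3, 18.4, 18.5, 21.2 and 15.0 CPM. All 4 Ezh2-deficient libraries were above all 5 WT libraries. Ezh2-deficient libraries averaged 36.1 ± 4.29 (SD, n = 4) and WT libraries 18.1 ± 2.25 CPM (SD, n = 5), which is 2.0-fold, with a 95% interval of 1.68 to 2.38 (log2 fold change 1.0, SE 0.12, adjusted p = 0.000193). It passed in 24 of 24 alternatives (0.89 to 1.1), at 0.89 in libraries with a high hypoxia score and 1.1 in those with a low one (adjusted p = 0.0102 and 0.0247). The antisense gene A430072P03Rik overlaps Gfi1 and had 243 counts over the 9 libraries, against 6402 and 3869 counts of Gfi1 in the groups. The next tested gene at higher coordinates, Evi5, 18759 bases away, also rose (0.84, adjusted p = 0.00227). The paralogue Gfi1b, a factor of red cell precursors, had 0 counts in every library.

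Gfi1 represses genes with the lysine demethylase Kdm1a and its partner Rcor1. Of 8 tested corepressors and known targets, 1 rose and 0 fell (2 and 0 at an unadjusted p under 0.05 and with DESeq2, 1 and 0 with limma-voom). The edgeR shares over all tested genes were 13.1% and 8.8%. The gene that rose was Id2, an inhibitor of helix-loop-helix factors, at 196 ± 20.1 against 62.7 ± 12.3 CPM (adjusted p = 3.34e-05, log2 fold change 1.64). Kdm1a was at 0.02, Rcor1 at 0.13 and Il7r, a target that Gfi1 is known to repress, at 0.52 on the log2 scale, none past the test.

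Gata3 (ENSMUSG00000015619; chromosome 2, 9857078 to 9890034), the zinc finger factor that defines T helper 2 cells and also supports Tregs, did not pass the test between genotypes, whereas its levels did not overlap between libraries of high and low hypoxia score. It was at 77.0, 82.7, 87.9 and 57.5 CPM in Ezh2-deficient replicates 1 to 4. It was at 69.0, 67.5, 94.1, 60.9 and 84.4 CPM in WT replicates 1 to 5. The groups overlapped across most of their range, and the log2 fold change was 0.02 with a 95% interval of -0.30 to 0.34 (adjusted p = 0.94), so fold changes below 0.813 or above 1.26 lie outside it. The 5 high libraries were at 57.5 to 77.0 CPM and the 4 low ones at 82.7 to 94.1 CPM, without overlap. Of the 9 factors 1 was apart in this way, against 3.49% of all tested genes, and no test was made between these classes, which were drawn from the data. Within the classes the genotypes overlapped, at 57.5 to 77.0 against 60.9 to 69.0 CPM and at 82.7 to 87.9 against 84.4 to 94.1 CPM. Counts of Gata3 could include reads of the overlapping genes 4930412O13Rik, Gm13256 and 9230102O04Rik, which had 55, 38 and 138 counts in all.

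**Figure D4:**
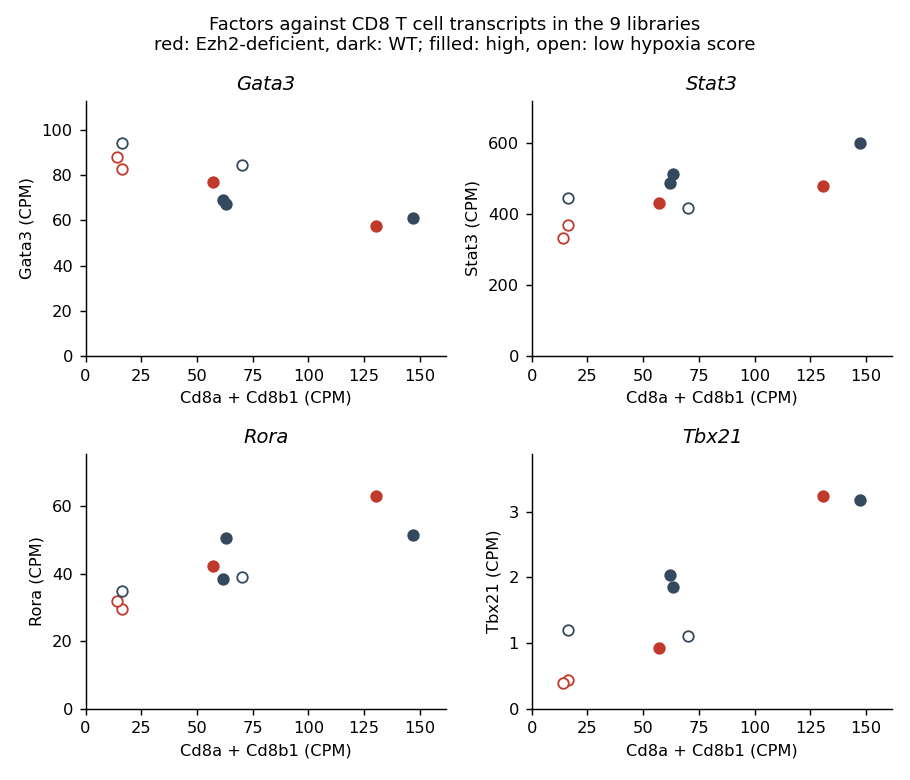
CPM of Gata3, Stat3, Rora and Tbx21 (vertical axes) against the summed CPM of Cd8a and Cd8b1 (horizontal axes) in each of the 9 libraries, red for Ezh2-deficient, dark for WT, filled for a high and open for a low hypoxia score. Gata3 is lowest and Tbx21 highest in the replicate 4 library of each group, which hold 131 and 147 CPM of the CD8 transcripts.

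Of 15 tested T helper 2 pathway genes other than Gata3 and Gfi1, 1 rose and 3 fell, with a median of -0.03. Among all tested genes 13.1% rose and 8.8% fell. Stat5b and Stat5a, which carry the interleukin-2 signal, fell by 0.33 and 0.51 on the log2 scale (adjusted p = 0.00436 and 0.0306), the first from 231 ± 12.3 to 183 ± 5.55 CPM. Stat5a was no longer called when any 1 of Ezh2-deficient replicates 1, 3 and 4 and WT replicate 4 was left out (-0.54 to -0.46, adjusted p = 0.0578 to 0.0658). Ccr4, a chemokine receptor of T helper 2 cells and Tregs, fell by 0.55 (adjusted p = 0.0118), from 272 ± 49.6 to 186 ± 23.4 CPM. Nfil3, a leucine zipper factor, rose by 0.60 (adjusted p = 0.0326), but not when any 1 of Ezh2-deficient replicates 1 and 4 and WT replicates 1, 2, 3 and 5 was left out (0.45 to 0.62, adjusted p = 0.0531 to 0.114). The interleukin-4 signal transducer Stat6 was at 265 ± 5.93 against 298 ± 36.0 CPM (-0.17, adjusted p = 0.2). Il4, Il5 and Il9 were too low to be tested, and Il13 had 0 counts.

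Stat3 (ENSMUSG00000004040; chromosome 11, 100885098 to 100939540), which carries the signal of interleukin-6 and related cytokines, did not pass the test. It was at 432, 370, 332 and 480 CPM in Ezh2-deficient replicates 1 to 4 and at 487, 513, 445, 600 and 418 CPM in WT replicates 1 to 5. All 4 Ezh2-deficient libraries were below the WT median, and 2 were below every WT library. Ezh2-deficient libraries averaged 403 ± 65.7 (SD, n = 4) and WT libraries 492 ± 70.5 CPM (SD, n = 5), a log2 fold change of -0.29 with a 95% interval of -0.56 to -0.01 (unadjusted p = 0.0417, edgeR adjusted p = 0.119). Within the high hypoxia score libraries the Ezh2-deficient values were 432 to 480 CPM and the WT values 487 to 600 CPM. Within the low score libraries they were 332 to 370 and 418 to 445 CPM. Each class held only 2 or 3 libraries of a genotype. How many of all tested genes have genotypes apart within the classes was not counted, so these ranges are a description only. The edgeR tests within the classes did not pass (-0.23 and -0.33, adjusted p = 0.232 and 0.194). With the hypoxia score as a covariate Stat3 fell by 0.27 (adjusted p = 0.0208), with a CD8 score it was at -0.18 (adjusted p = 0.166), and with quality weights in limma-voom it fell by 0.36 (adjusted p = 0.0317). With the replicate number as a block, and WT replicate 5 left out, it fell by 0.36 (adjusted p = 0.023). Stat3 overlaps Stat5a on the other strand, and the strand setting of the counting is not given, so reads in the overlap cannot be assigned with certainty.

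Rora (ENSMUSG00000032238; chromosome 9, 68653786 to 69388246), a nuclear receptor of the T helper 17 program that is also found in Tregs of skin and other tissues, varied within the groups. It was at 42.1, 29.6, 31.9 and 62.9 CPM in Ezh2-deficient replicates 1 to 4 and at 38.5, 50.5, 34.8, 51.5 and 39.0 CPM in WT replicates 1 to 5. The Ezh2-deficient libraries included both the highest and the 2 lowest of the 9. The change was -0.04 with a 95% interval of -0.51 to 0.43 (adjusted p = 0.919). The 5 libraries of high hypoxia score were at 38.5 to 62.9 CPM and the 4 of low score at 29.6 to 39.0 CPM, and within the classes the log2 fold change between genotypes was 0.16 and -0.29 (adjusted p = 0.598 and 0.278).

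ROR receptors and the Nr1d repressors share sites in clock genes, and of 12 tested ROR partners and clock genes 3 rose and 2 fell. Among all tested genes 13.1% rose and 8.8% fell. Per3 rose to 16.8 ± 3.45 from 7.46 ± 1.82 CPM (1.17, adjusted p = 0.00143) and Nr1d2 to 34 ± 6.31 from 17.9 ± 4.77 CPM (0.92, adjusted p = 0.0061), while Cry1 fell by 0.43 (adjusted p = 0.00812).

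Ahr (ENSMUSG00000019256; chromosome 12, 35497974 to 35535038), a receptor for dietary and environmental ligands that supports T helper 17 cells and gut Tregs, was uneven in both groups. It was at 30.0, 17.8, 16.9 and 36.3 CPM in Ezh2-deficient replicates 1 to 4. It was at 16.7, 16.9, 20.2, 35.1 and 15.5 CPM in WT replicates 1 to 5. The high values were Ezh2-deficient replicates 1 and 4 and WT replicate 4, and the groups overlapped. The change was 0.28 with a 95% interval of -0.38 to 0.94 (adjusted p = 0.532), 0.55 without WT replicate 4 (adjusted p = 0.131) and 0.026 without Ezh2-deficient replicate 4 (adjusted p = 0.962). Of 9 tested genes of the AHR pathway, 0 rose and 1 fell (1 and 1 at an unadjusted p under 0.05, with DESeq2 and with limma-voom). The edgeR shares over all tested genes were 13.1% and 8.8%. The gene that fell was the chaperone gene Hsp90ab1 (2274 ± 79.8 to 1696 ± 150 CPM, -0.42, adjusted p = 0.0036). The induced enzyme gene Cyp1a1 was at 0.733 to 2.42 CPM in Ezh2-deficient and 1.42 to 5.05 CPM in WT libraries (-0.67 on the log2 scale) and did not pass. Ahrr, the repressor that AHR induces, was at 6.71, 5.96, 6.32 and 7.48 against 2.64, 2.59, 3.73, 3.70 and 7.0 CPM. WT replicate 5 lay among the Ezh2-deficient libraries (0.75, adjusted p = 0.0649). Ahrr passed in 7 of 24 alternatives, among them the fit without WT replicate 5 (1.05, adjusted p = 0.00399), DESeq2 (adjusted p = 0.0347) and limma-voom (adjusted p = 0.0379), and was at 0.16 in the low hypoxia score libraries (adjusted p = 0.815).

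Of 15 tested T helper 17 pathway genes other than Stat3, Rora and Ahr, 4 rose and 4 fell, with a median of 0.11. Among all tested genes 13.1% rose and 8.8% fell. Tmem176a and Tmem176b, adjacent genes that encode membrane proteins, rose to 34.3 ± 10.1 and 53.0 ± 17.4 from 5.93 ± 1.96 and 8.57 ± 2.51 CPM (2.52 and 2.63, adjusted p = 8.32e-05 and 9.42e-05). Both lie in a gene cluster near Ezh2, whose alleles differ between the groups, and the part of this position in their rise was not tested. Il6st, the shared gp130 chain through which interleukin-6 reaches Stat3, rose to 257 ± 31.6 from 155 ± 15.4 CPM (0.73, adjusted p = 0.000432). Ccr6, the chemokine receptor of T helper 17 cells, fell to 4.44 ± 1.91 from 23.7 ± 10.6 CPM (-2.40, adjusted p = 0.00248). Of 17 other STATs, Janus kinases and feedback genes, 4 rose and 3 fell, to be read against the same shares. Besides Stat5a and Stat5b, the phosphatase gene Ptpn6 fell by 0.42 (adjusted p = 0.0156). Pias1 and Socs2, inhibitors of STAT signalling, rose by 0.28 and 0.30 (adjusted p = 0.0245 and 0.03), and each call was lost in 5 of the 9 fits that left out 1 library. These were all 4 Ezh2-deficient replicates and WT replicate 3 for Pias1 (adjusted p = 0.053 to 0.122), and Ezh2-deficient replicates 1, 3 and 4 and WT replicates 2 and 3 for Socs2 (adjusted p = 0.0692 to 0.104). Stat2, which carries interferon signals, was at -0.19 (adjusted p = 0.0963).

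**Figure D5:**
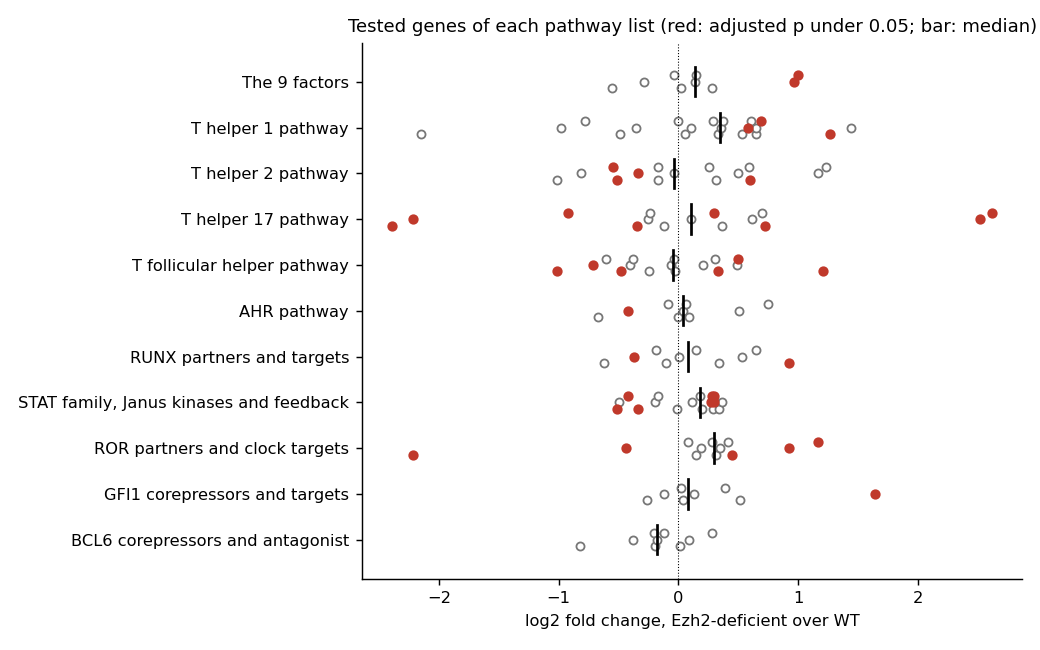
The log2 fold change (horizontal axis, Ezh2-deficient over WT) of each tested gene of the 9 factors and of the pathway lists, red where the adjusted p was under 0.05, with a bar at each list's median. The T helper 17 list holds 4 rises and 4 falls, from Tmem176b at 2.63 to Ccr6 at -2.40, and the BCL6 list holds no call.

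Bcl6 (ENSMUSG00000022508; chromosome 16, 23965052 to 23988852), the zinc finger repressor that defines T follicular helper cells and follicular Tregs, was low and close in both groups. It was at 11.5, 8.88, 7.98 and 9.50 CPM in Ezh2-deficient replicates 1 to 4 and at 8.14, 9.69, 9.78, 8.81 and 6.66 CPM in WT replicates 1 to 5. The groups overlapped, with a log2 fold change of 0.14 and a 95% interval of -0.20 to 0.48 (adjusted p = 0.556). Of 9 tested corepressors of BCL6 and genes that oppose it or resemble it, 0 rose and 0 fell in edgeR, 1 and 2 at an unadjusted p under 0.05, 0 and 1 in DESeq2 and 0 and 0 in limma-voom. Among them were Prdm1, its antagonist, at -0.38 and its paralogue Bcl6b at 1.31 ± 0.577 against 2.35 ± 0.845 CPM (-0.82, adjusted p = 0.129). Of 16 tested T follicular helper genes, 3 rose and 3 fell, with a median of -0.05. Among all tested genes 13.1% rose and 8.8% fell. Id3, an inhibitor of helix-loop-helix factors that restrains follicular cells, rose to 139 ± 11.1 from 60.3 ± 10.9 CPM (1.21, adjusted p = 8.07e-05). Lef1, a factor that precedes Bcl6, rose by 0.50 (adjusted p = 0.00418). The receptor gene Slamf6 fell from 149 ± 18.5 to 90.4 ± 18.2 CPM (-0.72, adjusted p = 0.00356). Tox rose by 0.33 (adjusted p = 0.0275), but not when any 1 of Ezh2-deficient replicates 1 to 3 and WT replicates 1, 2 and 4 was left out (0.26 to 0.33, adjusted p = 0.0537 to 0.1).

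The precision of the 7 factors that did not pass differed. For 6 of them the 95% interval lay within a 2-fold change in either direction, and for Tbx21 it did not. Relative spread between libraries was largest for Tbx21, with a coefficient of variation of 108% in Ezh2-deficient and 44.3% in WT libraries, followed by Ahr at 37.6 and 38.8%. It was 11.1 and 12.4% for Stat4, 11.9 and 12.4% for Gfi1 and 11.8 and 13.3% for Runx3.

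The genes whose log2 CPM most resembled each factor over the 9 libraries were ranked by Pearson's r among 9543 protein-coding genes of at least 5 CPM, as a description with no test. For Stat4 they were S100a4 (r = 0.992), a calcium-binding protein gene, and Ripor2 (r = 0.991). For Gfi1 they were Pdk2 and Nsun3, each at 0.974. The nearest to Stat3 was Gzf1 (0.990), to Tbx21 Miga1 (0.978), to Runx3 Fgl2 (0.965) and to Rora Togaram1 (0.963). The nearest to Gata3 was Ptgir and to Ahr Nat9, each at 0.949, and to Bcl6 Vps37c (0.929). S100a4, Ripor2 and Pdk2 rose with their factors (2.57, 0.82 and 1.13), whereas Nsun3 and the nearest gene of each other factor did not pass. With 9 points that share group and culture, high values of r are frequent among so many genes.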

How the data were processed

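RNA was measured with a stranded mRNA kit in 4 Ezh2-deficient and 5 WT libraries, and groups and replicate numbers came from the sample titles. The authors deposited whole-number counts per Ensembl gene, not normalized. Per the submitters' processing notes, STAR and build GRCm38 were used. Which tool, strand setting and annotation release were used for counting is not stated in the labels. Symbols, positions and exon lengths came from GENCODE M21 (GRCm38), which held 42548 of 43432 identifiers. The members, lists and tests were chosen with earlier results of these data known.

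Genes were kept by edgeR's default filter, and libraries were scaled by TMM and tested with its robust quasi-likelihood F-test (edgeR 4.0.16, R 4.3.3), Benjamini-Hochberg over 13685 genes, threshold 0.05. The SE is the log2 fold change divided by the square root of F, and intervals are 95% from it. Promoter windows came from RefSeq. Named genes were the 9 members, Ezh2, paralogues, overlapping and neighbouring genes, up to 4 called genes per list and the most similar genes. Others given, such as Il12rb1, Kdm1a and Cyp1a1, were chosen after their values were seen. No 2 libraries were duplicates (lowest chi-square per degree of freedom 21.9). The tests were tried on simulated data. Some genes of the lists are not reported here by name.

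Alternatives were other scalings and filters, DESeq2 1.42.0, limma 3.58.1 (voom), a block for the replicate number, leaving out each library, hypoxia or CD8 score as covariate or class, and a 1.5-fold test. Leaving out the library of highest CD8 score of each group was added after seeing the data.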

Additional observations from a re-analysis of the deposited data

Results flagged for a closer look

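In 7 of 110 groups of 4 or 5 libraries examined over the named genes, the highest or lowest library stood apart from the rest by more than Dixon's 95% limit, where chance gives about 1 in 20. Ahr in WT replicate 4 was at 35.1 CPM, above the 15.5 to 20.2 CPM of the other WT libraries. Runx3 in Ezh2-deficient replicate 4 was at 134 CPM, above the others at 106 to 109 CPM. Ccr6 in the same library was at 7.30 CPM, the highest of its group. Ahrr in WT replicate 5 was at 7.0 CPM, the highest of its group. WT replicate 5 also had the lowest Foxp3, at 1293 CPM, and the highest Satb1, a chromatin organiser gene, at 184 CPM, of the WT libraries. Pias1 in Ezh2-deficient replicate 3 was at 148 CPM, the highest of its group.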

How the results depend on the processing

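For the helper lineage factors, Stat4 and Gfi1 were called higher in all 24 alternatives run. The number called lower, 0, was 1 with limma-voom quality weights, 1 with the hypoxia score as covariate and 1 with the replicate block (Stat3 in each), and 0 to 1 with each library left out in turn. Same-numbered libraries correlated in their deviations from the group means at 0.153, -0.0834, 0.114 and 0.187. Differently numbered libraries of the 2 groups correlated at -0.254 to 0.319, so the numbers are not shown to pair them. With the block Stat3 was at -0.36 (adjusted p = 0.023) and the other members kept their side of the threshold. Signs turned for factors that did not pass in any setting: Gata3 was at -0.0096 with total-count scaling, -0.13 with the CD8 score, -0.094 in the low hypoxia score libraries and -0.0735 to 0.1149 without 1 library (-0.0061, -0.042 and -0.073 without Ezh2-deficient replicate 1, 2 and 3, and -0.021, -0.036 and -0.047 without WT replicate 1, 2 and 4). Rora was at -0.3329 to 0.071 without 1 library, 0.13 with the CD8 score, 0.16 in the high score libraries, 0.071 and 0.047 without Ezh2-deficient replicate 2 and 3, and 0.0026 and 0.036 without WT replicate 2 and 4. Ahr was at -0.069 in the low score libraries. The cause was not tested. Over all tested genes, 1797 higher and 1204 lower calls became 1170 and 802 without Ezh2-deficient replicate 3, 1067 and 697 in the high and 424 and 146 in the low score libraries, and 362 and 48 against 1.5-fold. Lower calls were 1868 with DESeq2, 1939 with the CD8 score and 663 without the highest CD8 library of each group. Among the called genes named, Il18r1, Il18rap, Ifngr1, Stat5a, Stat5b, Ccr4, Nfil3, Nr1d2, Cry1, Lef1, Slamf6, Tox, Hsp90ab1, Ptpn6, Pias1, Socs2, Zbtb7b, Satb1, Pde3b, Tcrg-C1, Adgre1, Itgam, Cd79a, Hba-a1, Lrrc32 and Foxp3 missed the threshold in the 4 low score libraries alone. Ccr4, Hsp90ab1, Cd79a, Lrrc32, Foxp3, Gata1, Hba-a1, Pias1, Socs2, Tox and Zbtb7b did so in the 5 high score libraries. Without the highest CD8 library of each group, Ifngr1, Il18rap, Nfil3, Pias1, Socs2, Stat5a and Zbtb7b did so. Ezh2, Runx2 and Il6st missed the threshold in no setting but the test against 1.5-fold. Gata1 also missed it in that test, as did all the genes listed for the low score libraries except Il18r1, Satb1, Tcrg-C1 and Adgre1. With 13 to 199 counts per library, Tbx21 has the widest interval of the 9.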

Other observations

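Gata1, the relative of Gata3 known from red cells and mast cells, stood above Gata3 in these Tregs. Per kilobase of exons it was at 31.3 CPM per kb in WT libraries, where Gata3 was at 18.9. It was at 112, 130, 139 and 86.2 CPM in Ezh2-deficient replicates 1 to 4 and at 98.9, 74.0, 66.2, 60.9 and 81.8 CPM in WT replicates 1 to 5. Gata1 rose by a log2 fold change of 0.61 (edgeR adjusted p = 0.0183), although WT replicate 1, from an Ezh2-fl/+ mouse, lay above Ezh2-deficient replicate 4. The call was lost when Ezh2-deficient replicate 2 or 3 was left out (0.50 to 0.53, adjusted p = 0.053 to 0.0704). Red cell markers were low and moved the same way: Hba-a1, an alpha globin gene, was at 5.66 against 1.72 CPM (1.70, adjusted p = 0.0245, lost without Ezh2-deficient replicate 2 or WT replicate 2 or 3) and Hbb-bt at 6.47 against 3.01 CPM (adjusted p = 0.0705), while the heme synthesis gene Alas2 had 2 and 1 counts, and the part of such cells in the Gata1 level was not tested. Gata2 was at 0.634 ± 0.279 against 0.166 ± 0.166 CPM (adjusted p = 0.0533).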
